A study of Homo sapiens with 5 samples.

Results

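Peroxiredoxins, thioredoxins and thioredoxin reductases were examined as a set of 10 genes, PRDX1 to PRDX6, TXN, TXN2, TXNRD1 and TXNRD2, taken by their symbols from tables that listed 20030 genes. Each of the 10 was listed, and each passed the filter for testing, which was at least 1 FPKM in at least 1 library and left 11728 genes. FPKM is the number of sequenced fragments scaled to transcript length and to library size, so levels of different genes can be compared per length. The RNA came from HCT116, a human colorectal cancer cell line. The libraries were labelled control (2), SP1 knockdown (1), SP3 knockdown (1) and knockdown of SP1 together with SP3 (1, called the double knockdown here). The titles mark the knockdowns as siRNA, and what the control cells received is not stated beyond the letters NC. SP1 and its relative SP3 are zinc finger proteins that bind GC-rich promoter sequence and regulate transcription. The labels name no other treatment or allele. The labels give no siRNA sequence, dose or treatment time. Each knockdown is 1 library, so its own spread could not be measured.

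Peroxiredoxins are enzymes that reduce hydrogen peroxide and organic peroxides with a reactive cysteine. In the typical peroxiredoxins PRDX1 to PRDX4 the oxidised cysteine forms a disulfide with a partner subunit. In the cytosol and mitochondria, thioredoxin, a small protein with a pair of active-site cysteines, reduces that disulfide. Thioredoxin reductase, a selenium-containing flavoenzyme, returns thioredoxin to its reduced form with electrons from NADPH. TXN and TXNRD1 work mainly in the cytosol and nucleus, TXN2 and TXNRD2 in mitochondria. PRDX1, PRDX2 and PRDX6 are mainly cytosolic, PRDX3 is mitochondrial, PRDX5 is found in mitochondria, peroxisomes and cytosol, and PRDX4 enters the endoplasmic reticulum and the secretory pathway.

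The library sizes inferred from the FPKM values were 14678068 to 15970519 reads. Each siRNA target was lower where its knockdown was labelled, and SP1 was also lower with the SP3 siRNA alone, at 74.5% of its control mean. SP1 was listed at 36.6 and 37.2 FPKM in the controls, 15.8 with the SP1 siRNA, 27.5 with the SP3 siRNA and 16.1 in the double knockdown. SP3 was listed at 13.3 and 13.002 FPKM in the controls, 14.3 with the SP1 siRNA, 5.42 with the SP3 siRNA and 6.67 in the double knockdown. Of 10 epithelial markers, 9 reached 1 FPKM, with a summed level of 4055 to 4949 FPKM over the 5 libraries. Of 6 fibroblast markers 1 reached that level (COL1A1, with LUM at 0 throughout), and none of 4 endothelial ones did. The 8 leukocyte markers summed to 21.4 and 21.5 FPKM in the controls and to 0.477 to 1.01 FPKM in the knockdown libraries. Of these markers 5 reached 1 FPKM in a control, and TYROBP and CD3E were listed at 0 in every knockdown library. This marker difference runs alongside every comparison with the controls given here, and its part in them was not tested. In bulk RNA, expression of these markers by the HCT116 cells and reads or RNA from another source cannot be told apart.

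SP1 and SP3 are known for binding the GC box, so the promoters of the genes whose levels moved furthest are shown, with PRDX3, chosen with its values known as a member whose level moved little, beside them. The RefSeq promoter table (GRCh38.p14) held entries for 7 of the 10 genes, with several starts for some. PRDX1, PRDX6 and TXN2 had no entry. The 250 bases before the annotated start are printed 5′ to 3′ on the strand of the gene. Capitals mark the letters GGGCGG on either strand, where CCGCCC is the match on the opposite strand.
PRDX4, chrX:23667243-23667492, plus strand: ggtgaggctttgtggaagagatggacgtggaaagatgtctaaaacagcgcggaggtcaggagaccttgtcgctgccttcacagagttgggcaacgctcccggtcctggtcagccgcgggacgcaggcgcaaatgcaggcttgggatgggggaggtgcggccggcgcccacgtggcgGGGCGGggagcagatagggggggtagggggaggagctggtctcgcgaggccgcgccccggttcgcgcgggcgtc
PRDX5, first start, chr11:64317871-64318120, plus strand: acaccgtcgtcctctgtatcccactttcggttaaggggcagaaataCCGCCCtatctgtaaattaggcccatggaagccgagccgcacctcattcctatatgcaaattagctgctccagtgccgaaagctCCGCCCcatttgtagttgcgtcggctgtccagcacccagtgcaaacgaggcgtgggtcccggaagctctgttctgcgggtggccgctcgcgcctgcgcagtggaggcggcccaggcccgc
TXN, chr9:110256508-110256757, minus strand: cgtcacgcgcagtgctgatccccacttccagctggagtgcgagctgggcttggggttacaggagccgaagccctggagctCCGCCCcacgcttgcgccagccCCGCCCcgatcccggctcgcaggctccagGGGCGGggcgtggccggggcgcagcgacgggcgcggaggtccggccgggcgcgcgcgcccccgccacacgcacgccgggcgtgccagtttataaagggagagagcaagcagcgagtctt
TXNRD1, first start, chr12:104215529-104215778, plus strand: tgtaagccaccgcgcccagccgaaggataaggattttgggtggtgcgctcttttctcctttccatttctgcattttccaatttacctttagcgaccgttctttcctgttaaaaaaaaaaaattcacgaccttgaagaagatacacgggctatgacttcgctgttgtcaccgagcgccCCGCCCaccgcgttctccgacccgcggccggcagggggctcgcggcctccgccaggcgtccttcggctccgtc
TXNRD1, second start, chr12:104286782-104287031, plus strand: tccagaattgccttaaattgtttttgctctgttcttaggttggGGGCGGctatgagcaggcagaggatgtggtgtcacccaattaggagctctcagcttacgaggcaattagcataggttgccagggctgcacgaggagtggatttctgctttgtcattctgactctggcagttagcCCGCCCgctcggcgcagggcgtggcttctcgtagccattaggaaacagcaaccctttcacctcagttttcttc
PRDX3, chr10:119178813-119179062, minus strand: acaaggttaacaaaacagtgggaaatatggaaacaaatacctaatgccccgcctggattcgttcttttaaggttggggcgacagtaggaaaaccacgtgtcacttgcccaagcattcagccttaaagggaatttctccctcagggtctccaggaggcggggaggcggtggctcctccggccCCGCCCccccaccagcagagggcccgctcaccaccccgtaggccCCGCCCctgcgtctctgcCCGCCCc
In the table's full windows, which add the first transcribed bases, PRDX4 held 1 GC box, with its first base 74 bases before the start. The first PRDX5 start held 2 and the second, not printed, held 1, TXN held 3, the TXNRD1 starts held 1 and 2, and PRDX3 held 3. Of all 35116 promoters in the table, 45.0% held at least 1 match, as did 67.7% of the 13524 promoters of tested genes. Of the promoters of tested genes 27.3% held 3 or more. The antioxidant response element core, TGACNNNGC on either strand, is the sequence bound by NRF2, the main transcription factor of antioxidant genes. It matched at both TXNRD1 starts, 2 times at the first and 1 time at the second, without overlap with a GC box, and in the window of no other member that had an entry. It matched in 13.3% of all promoters and in 14.6% of those of tested genes. Such matches describe these letters in these windows and do not show binding.

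In the controls the 10 transcripts spanned a wide range of levels. PRDX1 was listed at 483 and 519 FPKM and ranked 117 among all genes by control mean. PRDX5 followed at 310 and 314 FPKM and TXN at 196 and 202 FPKM. PRDX2 (192 and 185 FPKM) and PRDX3 (180.0 and 185 FPKM) overlapped between the controls, so their order is not resolved. Below them came the reductase TXNRD1 at 133 and 132 FPKM, the PRDX6 transcript at 101 and 99.2 FPKM, and TXN2 at 51.1 and 48.4 FPKM. PRDX4 stood at 21.6 and 19.6 FPKM, and TXNRD2 was lowest at 2.10 and 1.85 FPKM. The controls differed from each other by -0.14 to 0.10 on the log2 scale over the 10 genes, against percentiles 5 and 95 of -0.25 and 0.16 over all tested genes.

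**Figure D1:**
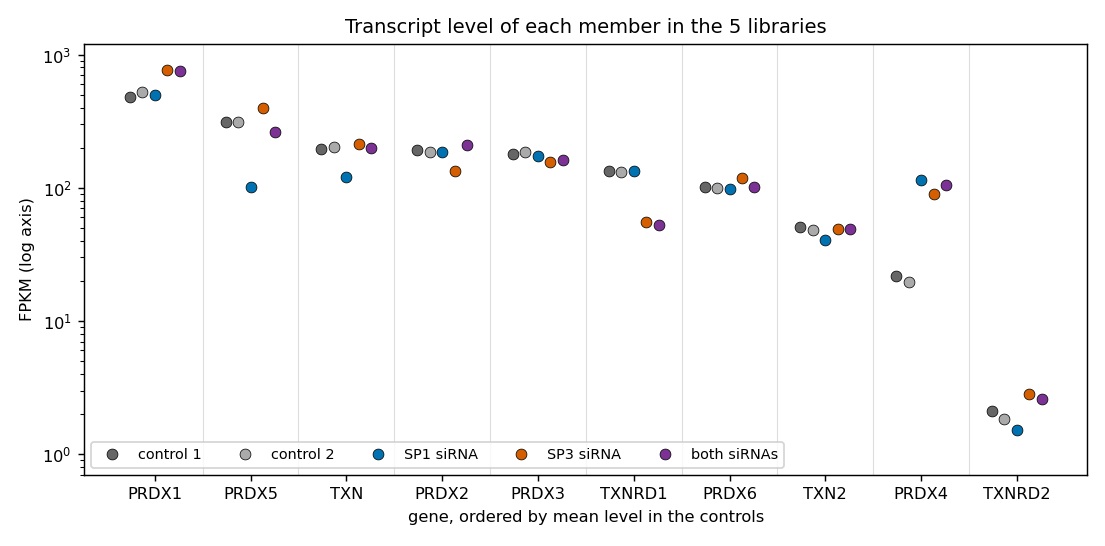
FPKM of each gene (log axis) in the 5 libraries, 1 point per library, with genes ordered by their control mean. PRDX4 stands near 20 FPKM in both controls and at 89.6 to 114 FPKM in the 3 knockdown libraries, PRDX5 is lowest with the SP1 siRNA at 102 FPKM, and TXNRD1 is lowest with the SP3 siRNA and in the double knockdown at 55.02 and 52.9 FPKM.

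The first comparison asked how these genes differ when SP1 is lowered. Differences and their standard errors are on the log2(FPKM + 1) scale from limma, with p-values adjusted over all tested genes by the Benjamini-Hochberg method. PRDX4, the peroxidase of the endoplasmic reticulum, was listed at 114 FPKM with the SP1 siRNA against 21.6 and 19.6 FPKM in the controls. The knockdown library lay far above both controls, at 554% of their mean (95% interval for counting error 514 to 599%). The difference of 2.42 ± 0.07 passed the threshold (limma adjusted p = 1.66e-12) and was the third largest rise among genes averaging 5 FPKM or more. PRDX5, which reduces peroxides in mitochondria and peroxisomes, moved the opposite way, from 310 and 314 FPKM to 102 FPKM. That is 32.6% of the control mean (30.8 to 34.5%), a fall of -1.61 ± 0.05 (limma adjusted p = 6.3e-12). TXN, the cytosolic thioredoxin, fell from 196 and 202 FPKM to 121 FPKM, 60.7% of control (57.4 to 64.2%, -0.72 ± 0.06, limma adjusted p = 3.63e-08). Its mitochondrial counterpart TXN2 fell less, to 40.7 FPKM against 51.1 and 48.4 FPKM in the controls (-0.28 ± 0.07, limma adjusted p = 0.00176).

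The other 6 genes did not pass the threshold with the SP1 siRNA. PRDX1 at 500 FPKM and PRDX2 at 186 FPKM lay between the 2 controls, with 95% intervals of the log2 difference of -0.12 to 0.12 and -0.14 to 0.11. TXNRD1 at 133 FPKM, PRDX3 at 174 FPKM and PRDX6 at 97.2 FPKM had log2 differences of 0.01, -0.07 and -0.04. The value of TXNRD2 was 1.53 FPKM (-0.23 ± 0.13, limma adjusted p = 0.119). In all, 1 gene was higher and 3 were lower, 4 of 10, while this comparison called 65.4% of the tested genes (36.5% higher, 28.8% lower), so the share among the members was not above the background. The median difference was -0.06 over the 10 genes and 0.06 over all tested genes. Median-ratio scaling between libraries shifted the SP1 siRNA library by 0.11 on the log2 scale and turned the split over all genes from 4283 higher and 3383 lower to 3453 higher and 4204 lower. Under it PRDX3 (-0.19, limma adjusted p = 0.0379) and TXNRD2 (-0.30, limma adjusted p = 0.0332) were called lower as well, and TXNRD1 moved from 0.01 to -0.11. Of the 9 genes averaging 5 FPKM or more, PRDX4 was at least 2-fold above each control and PRDX5 at least 2-fold below, against 10.6% of 7127 such genes (4.67% above, 5.89% below). The additive model lets each siRNA have 1 effect across the single and double knockdown libraries. Where the siRNA differences of a gene do not add up, this constraint shifts its estimates and widens its errors. PRDX4 had 1.47 ± 0.49 under it, beside 2.42 ± 0.07 without it. A lost call can therefore follow from a poor fit of the model. The additive model called 1 of the 10 against 7.67% of the tested genes. PRDX5 kept its call at -1.18 (limma adjusted p = 0.0483), while PRDX4 at 1.47 (limma adjusted p = 0.102), TXN at -0.46 and TXN2 at -0.17 lost theirs. Without the filter on low values limma called 3 of the 10 against 24.4% of 17125 genes, and TXN2 lost its call (limma adjusted p = 0.0773).

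**Figure D2:**
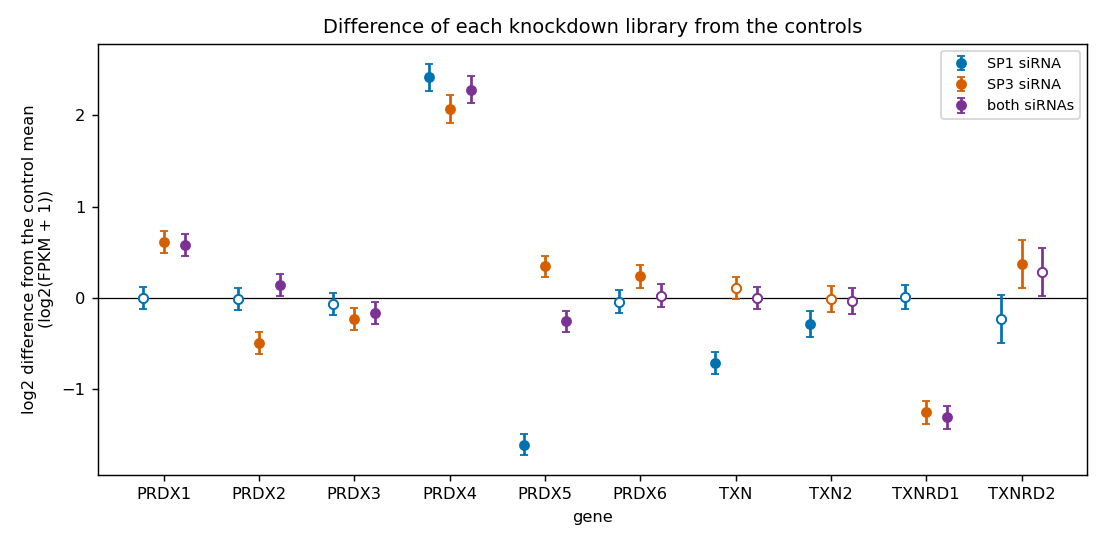
Log2 difference of each knockdown library from the control mean for the 10 genes (vertical axis, log2(FPKM + 1) scale), by knockdown, with 95% intervals from limma; open points did not pass the adjusted threshold. PRDX4 lies between 2.07 and 2.42 in the 3 libraries, PRDX5 at -1.61 with the SP1 siRNA, and TXNRD1 at -1.25 and -1.31 with the SP3 siRNA and in the double knockdown.

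The second comparison asked the same when SP3 is lowered, in a library where SP1 also stood at 74.5% of its control mean. TXNRD1, the cytosolic thioredoxin reductase, was listed at 55.02 FPKM with the SP3 siRNA against 133 and 132 FPKM in the controls. It stood at 41.5% of the control mean (40.1 to 42.9%), a fall of -1.25 ± 0.06 (limma adjusted p = 2.04e-10). Its mitochondrial relative TXNRD2 moved the other way at a low level, from 2.10 and 1.85 to 2.84 FPKM (0.37 ± 0.13, limma adjusted p = 0.018), on 226 reads. PRDX4 rose to 89.6 FPKM, 435% of control (402 to 471%, 2.07 ± 0.07, limma adjusted p = 8.7e-12). PRDX1, the most abundant peroxiredoxin transcript here, rose from 483 and 519 FPKM to 766 FPKM, 153% of control (150 to 156%, 0.61 ± 0.06, limma adjusted p = 2.65e-07). PRDX2, its close cytosolic relative, fell instead, from 192 and 185 FPKM to 133 FPKM, 70.7% of control (67.4 to 74.3%, -0.50 ± 0.06, limma adjusted p = 2.37e-06).

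Smaller differences with the SP3 siRNA passed the threshold for 3 further peroxiredoxins. PRDX5 rose to 398 FPKM (0.35 ± 0.05) and PRDX6, which also has phospholipase activity, to 119 FPKM (0.24 ± 0.06). PRDX3, the mitochondrial typical peroxiredoxin, fell to 155 FPKM (-0.23 ± 0.06). The thioredoxins did not pass, with TXN at 214 FPKM (0.11, 95% interval -0.01 to 0.23) and TXN2 at 49.2 FPKM (-0.01, -0.16 to 0.13). Thus 5 genes were higher and 3 lower, 8 of 10, against 61.6% of the tested genes (29.6% higher, 32.1% lower). The median difference was 0.17 over the 10 genes and -0.02 over all tested genes. PRDX4 was at least 2-fold above each control and TXNRD1 at least 2-fold below, against 9.32% of genes averaging 5 FPKM or more (4.14% above, 5.18% below). Without the filter on low values limma called 4 of the 10 against 12.3% of 17125 genes. The additive model called 2 of the 10 against 15.4% of the tested genes. PRDX1 (0.60, limma adjusted p = 0.0213) and TXNRD1 (-1.28, limma adjusted p = 0.0129) kept their calls. It ended those of PRDX4 (1.13, limma adjusted p = 0.158), PRDX2 (-0.22), PRDX3 (-0.18), PRDX5 (0.78), PRDX6 (0.17) and TXNRD2 (0.43).

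The double knockdown was set against the same 2 controls, which the 3 comparisons therefore share. PRDX4 was listed at 104 FPKM, 505% of control (467 to 547%, 2.28 ± 0.07, limma adjusted p = 2.48e-12). TXNRD1 was listed at 52.9 FPKM, 39.9% of control (38.5 to 41.4%, -1.31 ± 0.06, limma adjusted p = 1.12e-10), and PRDX1 at 748 FPKM, 149% of control (146 to 152%, 0.58 ± 0.06, limma adjusted p = 4.48e-07). The smaller calls followed, for PRDX5 at 261 FPKM (-0.26 ± 0.05), PRDX3 at 162 FPKM (-0.17 ± 0.06) and PRDX2 at 208 FPKM (0.14 ± 0.06, limma adjusted p = 0.0379). TXN at 198 FPKM lay between the controls (-0.01, 95% interval -0.13 to 0.11), as did TXN2 at 48.7 FPKM (-0.03, -0.17 to 0.11). PRDX6 at 102 FPKM lay just above them (0.03, -0.10 to 0.15) and TXNRD2 at 2.61 FPKM was not called (0.28, limma adjusted p = 0.0613). The count was 3 higher and 3 lower, 6 of 10, against 63.0% of the tested genes (31.9% higher, 31.1% lower). PRDX4 and TXNRD1 were past 2-fold from each control, against 9.68% of genes averaging 5 FPKM or more (4.38% above, 5.3% below). Without the filter on low values limma called 2 of the 10 against 18.4% of 17125 genes, and with median-ratio scaling PRDX2 lost its call (0.12, limma adjusted p = 0.154). The additive model called 3 of the 10 against 16.8% of the tested genes. PRDX1 (0.58), PRDX4 (2.60) and TXNRD1 (-1.30) kept their calls there, and PRDX2 (0.05), PRDX3 (-0.19) and PRDX5 (-0.40) lost theirs.

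**Figure D3:**
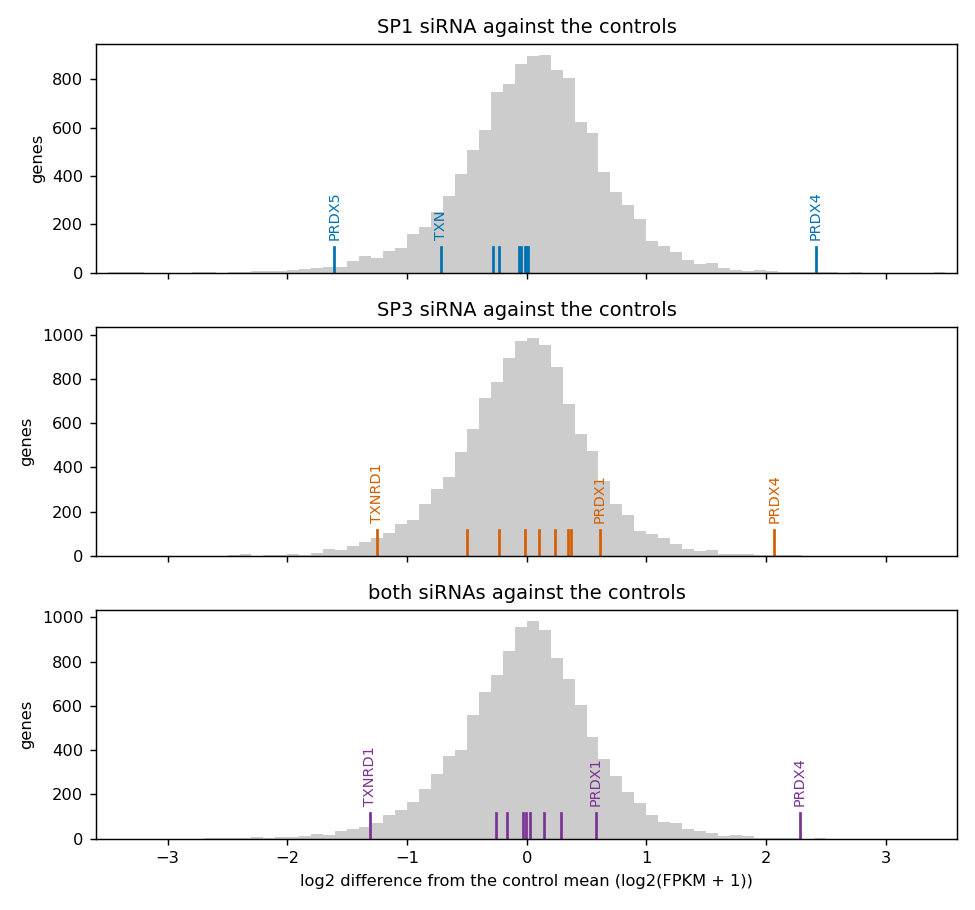
Number of tested genes (vertical axis) by log2 difference from the control mean (horizontal axis, log2(FPKM + 1) scale, bins of 0.1), in 1 panel per knockdown library; coloured ticks mark the 10 genes and those beyond 0.5 are named. PRDX4 lies in the far right tail of each panel, PRDX5 in the left tail with the SP1 siRNA and TXNRD1 in the left tail of the other 2 panels, while the remaining members lie between -0.72 and 0.61; 1 gene per panel lies outside the axis.

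Adding 1 siRNA to the other gave a comparison without the controls' own level. When the SP3 siRNA was added to the SP1 siRNA, PRDX5 was higher by 1.35 ± 0.06 (102 to 261 FPKM, limma adjusted p = 7.43e-10) and TXN by 0.71 ± 0.07 (121 to 198 FPKM, limma adjusted p = 6.64e-07). PRDX1 (0.58 ± 0.07), TXN2 (0.25 ± 0.08) and TXNRD2 (0.51 ± 0.15) were higher as well, and TXNRD1 was lower by -1.32 ± 0.07 (133 to 52.9 FPKM). That made 5 higher and 1 lower, 6 of 10, against 47.5% of the tested genes (21.0% higher, 26.4% lower). PRDX4 did not pass the threshold there (-0.13, 95% interval -0.31 to 0.04). PRDX2 did not pass at 0.16 (limma adjusted p = 0.0597) and did with median-ratio scaling at 0.26 (limma adjusted p = 0.0188). When the SP1 siRNA was added to the SP3 siRNA, PRDX2 was higher by 0.64 ± 0.07 (133 to 208 FPKM), PRDX5 lower by -0.61 ± 0.06 (398 to 261 FPKM) and PRDX6 lower by -0.21 ± 0.07, 3 of 10 against 33.0% of the tested genes (17.9% higher, 15.1% lower). TXNRD1 (-0.05, 95% interval -0.20 to 0.09), PRDX1 (-0.03, -0.17 to 0.11) and PRDX4 (0.21, 0.04 to 0.39, limma adjusted p = 0.0569) did not pass. Without the filter on low values, which brings 17125 genes into the fit, limma called 0 of all genes, and so 0 of the 10, in either comparison. At an unadjusted p under 0.05 it held 5 and 3 of the 10, against 35.4% and 25.9% of those genes. The additive model gives no separate result here. By its form it repeats its SP3 siRNA and SP1 siRNA effects against the controls. Its 2 and 1 calls, against 15.4% and 7.67% of the tested genes, are those given above.

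The single knockdowns were also set directly against each other. Each of the 10 genes passed the threshold, 6 higher and 4 lower with the SP3 siRNA, against 62.7% of the tested genes (26.5% higher, 36.2% lower). PRDX5 differed most, at 398 FPKM with the SP3 siRNA and 102 FPKM with the SP1 siRNA (1.96 ± 0.06, limma adjusted p = 5.59e-12). TXNRD1 was lower with the SP3 siRNA by -1.26 ± 0.07 (55.02 against 133 FPKM), and TXN higher by 0.82 ± 0.07 (214 against 121 FPKM). PRDX1 (0.61), TXNRD2 (0.60), PRDX6 (0.28) and TXN2 (0.27) were higher, and PRDX2 (-0.48), PRDX4 (-0.35) and PRDX3 (-0.17) lower. These are differences between 1 library and 1 library, with a spread taken from the controls. In the additive model PRDX1, PRDX5 and TXNRD1 kept their calls, 3 of 10 against 10.9% of the tested genes, and without the filter on low values 3 of 10 were called against 15.4% of 17125 genes. With median-ratio scaling 8 of 10 were called against 62.7% of genes, PRDX4 missed the threshold (-0.18, limma adjusted p = 0.0787) and PRDX3 turned to 0.0032.

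Whether the siRNAs added up was tested by an interaction term, which takes both single differences away from that of the double knockdown. A difference that every knockdown library shares against the controls enters this term in full, with its sign reversed. Such a shared difference and siRNAs that do not add up cannot be told apart here. PRDX4 departed most. Its single differences of 2.42 and 2.07 sum to 4.49, while the double knockdown differed by 2.28, a departure of -2.20 ± 0.11 (limma adjusted p = 4.85e-09). On the FPKM scale its level was 114, 89.6 and 104 with the SP1 siRNA, the SP3 siRNA and both, so the double knockdown lay between the singles. Only 3 of the 7127 genes averaging 5 FPKM or more departed further downward. PRDX5 departed by 1.002 ± 0.08 (limma adjusted p = 4.14e-07), with a sum of -1.26 and a double difference of -0.26. PRDX2 departed by 0.65 ± 0.09 (sum -0.51, double 0.14) and TXN by 0.60 ± 0.09 (sum -0.61, double -0.01). TXNRD1 did not pass, at -0.06 with a 95% interval of -0.26 to 0.13, and neither did PRDX1, at -0.03 with an interval of -0.22 to 0.15. In all 3 genes departed upward and 1 downward, 4 of 10, against 39.5% of the tested genes (18.5% upward, 21.0% downward). Without the filter on low values limma called 0 of 17125 genes, and so 0 of the 10. At an unadjusted p under 0.05 it held 4 of the 10, against 31.4% of those genes.

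**Figure D4:**
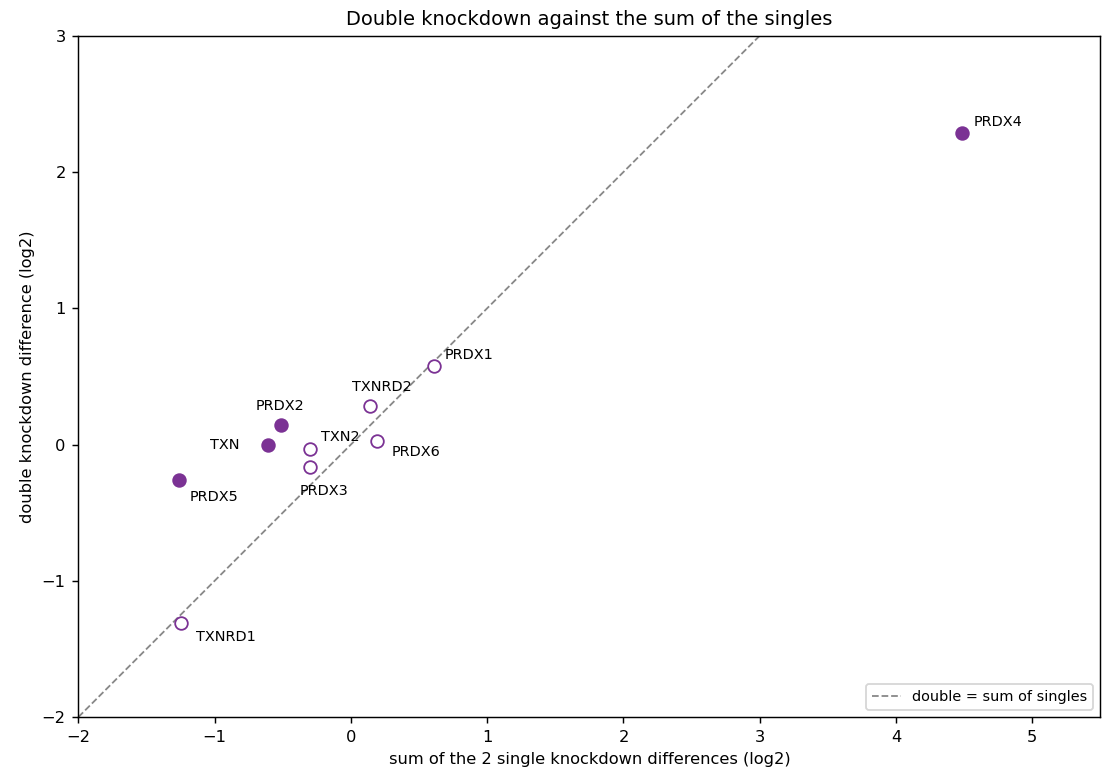
Double knockdown difference from the controls (vertical axis) against the sum of the SP1 siRNA and SP3 siRNA differences (horizontal axis), 1 point per gene, both on the log2(FPKM + 1) scale; filled points passed the test of the departure and the dashed line marks equality. PRDX4 lies far below the line at 4.49 and 2.28, PRDX5, PRDX2 and TXN lie above it, and TXNRD1 and PRDX1 lie on it within their intervals.

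The make-up of the peroxiredoxin transcripts shifted with these differences. Their summed level was 1288 and 1322 FPKM in the controls, 1174 FPKM with the SP1 siRNA, 1660 FPKM with the SP3 siRNA and 1586 FPKM in the double knockdown. PRDX1 made up 37.5 and 39.3% of the sum in the controls, 42.6% with the SP1 siRNA, 46.1% with the SP3 siRNA and 47.2% in the double knockdown. PRDX5 made up 24.1 and 23.8% in the controls and 8.67% with the SP1 siRNA. PRDX4 went from 1.68 and 1.48% in the controls to 9.73, 5.40 and 6.56% with the SP1 siRNA, the SP3 siRNA and both. With the SP1 siRNA the 4 members known from mitochondria (PRDX3, PRDX5, TXN2 and TXNRD2) summed to 58.3% of their control level of 547 ± 4.38 FPKM (SD, n = 2). PRDX5, also found in peroxisomes and cytosol, made up 57.1% of this sum in each control and 32.0% with the SP1 siRNA. It stood at 32.6% of its control mean there, against 95.5% for PRDX3, 81.8% for TXN2 and 77.6% for TXNRD2. The 4 together summed to 111% of control with the SP3 siRNA and to 86.8% in the double knockdown. The reductases summed to 100.4% of control with the SP1 siRNA, 43.0% with the SP3 siRNA and 41.3% in the double knockdown, and TXNRD1 made up 95.1 to 98.9% of that sum in every library. These sums were not tested.

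**Figure D5:**
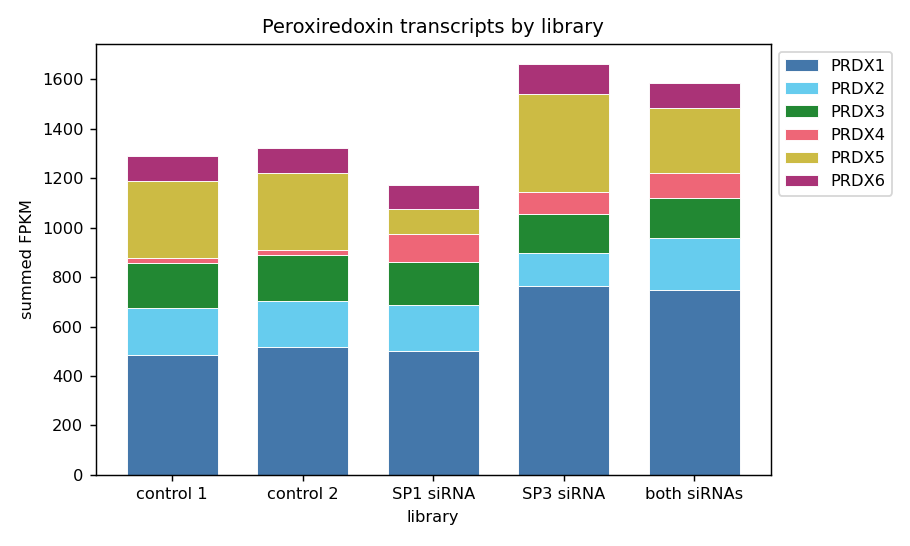
Summed FPKM of the 6 peroxiredoxins in each library (vertical axis, starting at 0), stacked by gene, with 1 bar per library. PRDX5 is the thinner band with the SP1 siRNA (102 FPKM against 310 and 314 in the controls), PRDX4 is visible in the 3 knockdown libraries, and the bars of the SP3 siRNA and of both siRNAs are the tallest at 1660 and 1586 FPKM.

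Genes that repair or restrain the system, and relatives of such genes, were read beside the 10. The counts of each list stand against the tested genes called higher and lower in the same comparison, which were 36.5% and 28.8% with the SP1 siRNA, 29.6% and 32.1% with the SP3 siRNA, and 31.9% and 31.1% in the double knockdown. The list of peroxiredoxin repair and thioredoxin inhibitors had 4 of 7 genes higher and 2 lower with the SP1 siRNA, 2 and 3 with the SP3 siRNA, and 1 and 3 in the double knockdown. Sulfiredoxin (SRXN1), which restores overoxidised peroxiredoxins, fell from 40.9 and 39.0 FPKM to 17.9 FPKM with the SP1 siRNA (-1.11 ± 0.07) and to 29.5 FPKM in the double knockdown (-0.43 ± 0.07). ARRDC3, an arrestin related to the thioredoxin inhibitor TXNIP, rose to 63.1 FPKM with the SP1 siRNA and fell to 24.5 FPKM with the SP3 siRNA, from 36.8 and 34.3 FPKM. Its relative ARRDC4 rose from 8.17 and 9.91 to 15.6 FPKM with the SP3 siRNA, and fell to 7.27 FPKM in the double knockdown. That fall of -0.27 was -0.40 against control 2 alone and -0.15 against control 1 alone. SESN1, a stress-induced sestrin, rose by 0.48 ± 0.09, 0.46 ± 0.09 and 0.36 ± 0.09 with the SP1 siRNA, the SP3 siRNA and both.

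Enzymes that make or use glutathione belong to the parallel reducing system of the cell. Of 13 tested genes 3 were higher and 5 lower with the SP1 siRNA, 5 and 4 with the SP3 siRNA, and 2 and 4 in the double knockdown, where 65.4%, 61.6% and 63.0% of all tested genes were called. GCLC, the catalytic subunit of the rate-limiting enzyme of glutathione synthesis, rose from 21.3 and 20.2 FPKM to 44.1 FPKM with the SP3 siRNA (1.05 ± 0.08) and fell to 14.1 FPKM with the SP1 siRNA (-0.53 ± 0.08). GPX8, a peroxidase of the endoplasmic reticulum membrane, fell from 9.97 and 9.99 FPKM to 3.56 FPKM with the SP1 siRNA (-1.27 ± 0.10) and to 3.001 FPKM in the double knockdown (-1.46 ± 0.10). GLRX, a glutaredoxin, fell to 26.4 FPKM with the SP1 siRNA and rose to 54.2 FPKM with the SP3 siRNA, from 41.7 and 40.2 FPKM. GSTP1 fell with the SP3 siRNA by -0.62 ± 0.05 and in the double knockdown by -0.45 ± 0.05, and GPX4 rose in the double knockdown by 0.29 ± 0.05.

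PRDX4 shares its compartment with the oxidative folding enzymes. Of 13 tested genes of that list 5 were higher and 4 lower with the SP1 siRNA, 3 and 5 with the SP3 siRNA, and 2 and 5 in the double knockdown. PDIA5, a disulfide isomerase, rose from 35.2 and 35.6 FPKM to 86.6, 66.9 and 70.5 FPKM with the SP1 siRNA, the SP3 siRNA and both (1.27 ± 0.06, 0.90 ± 0.06 and 0.97 ± 0.06). In the additive model each of these missed the threshold (limma adjusted p = 0.120, 0.345 and 0.0775). ERO1A, the oxidase that supplies disulfides, fell by -0.68 ± 0.06 with the SP1 siRNA, as did QSOX2 by -0.59 ± 0.08. VKORC1, which takes electrons from PDI family proteins as it reduces vitamin K epoxide, fell from 145 and 142 to 62.2 FPKM with the SP3 siRNA (-1.19 ± 0.06) and by -0.69 ± 0.06 in the double knockdown. QSOX1 fell by -0.73 ± 0.06 with the SP3 siRNA, and CRELD2 rose by 0.77 ± 0.10 in the double knockdown.

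Among other thioredoxin-fold proteins, 16 tested, 4 were higher and 5 lower with the SP1 siRNA, 3 and 5 with the SP3 siRNA, and 2 and 4 in the double knockdown. TXNDC5, an endoplasmic reticulum protein with several thioredoxin domains, fell from 108 and 113 FPKM to 65.8 FPKM with the SP3 siRNA (-0.74 ± 0.06) and 53.6 FPKM in the double knockdown (-1.03 ± 0.06). TXNL1 rose by 0.55 ± 0.07 with the SP1 siRNA and by 0.35 ± 0.07 in the double knockdown, and TMX2 by 0.50 ± 0.08 with the SP1 siRNA. TXNDC12 fell by -0.40 ± 0.07 with the SP1 siRNA and rose by 0.46 ± 0.07 with the SP3 siRNA. TMX1 fell by -0.43 ± 0.09 with the SP3 siRNA and by -0.32 ± 0.09 in the double knockdown. Of 4 tested genes among the superoxide dismutases, catalase and the copper chaperone CCS, 1 was higher and 1 lower with the SP1 siRNA, 2 and 1 with the SP3 siRNA, and 2 and 2 in the double knockdown. CCS fell by -0.73 ± 0.08 with the SP1 siRNA and by -0.27 ± 0.08 in the double knockdown. SOD2, the mitochondrial dismutase, fell by -0.59 ± 0.10 with the SP3 siRNA and by -0.46 ± 0.10 in the double knockdown. SOD1 rose by 0.21 ± 0.06 with the SP3 siRNA. Catalase (CAT) rose by 0.20 ± 0.07, 0.33 ± 0.07 and 0.46 ± 0.07 with the SP1 siRNA, the SP3 siRNA and both.

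Of 12 clients and targets of thioredoxin, 4 were higher and 6 lower with the SP1 siRNA, 1 and 6 with the SP3 siRNA, and 1 and 6 in the double knockdown, where 65.4%, 61.6% and 63.0% of all tested genes were called. RRM2, a subunit of ribonucleotide reductase, which takes electrons from thioredoxin, was listed at 66.1 and 64.5 FPKM in the controls, 18.0 with the SP1 siRNA, 17.2 with the SP3 siRNA and 40.0 with both, and each fall passed (-1.80, -1.86 and -0.69). MSRB1, a selenium-containing methionine sulfoxide reductase, fell by -1.37 ± 0.10, -0.90 ± 0.10 and -0.86 ± 0.10. HIF1A fell by -1.18 ± 0.07 with the SP3 siRNA and by -0.91 ± 0.07 in the double knockdown, and APEX1 rose by 0.65 ± 0.06 with the SP1 siRNA. NRF2 and its regulators, 8 genes, had none higher and 1 lower with the SP1 siRNA, 6 higher and none lower with the SP3 siRNA, and 6 and none in the double knockdown. Over all tested genes 36.5%, 29.6% and 31.9% were higher and 28.8%, 32.1% and 31.1% lower. Their median difference was 0.02, 0.38 and 0.40, beside 0.06, -0.02 and 0.01 over all tested genes. MAFG, a small MAF partner of NRF2, rose from 24.7 and 25.5 FPKM to 39.5 and 36.6 FPKM with the SP3 siRNA and both. MAFF fell by -0.45 ± 0.06 with the SP1 siRNA and rose by 0.44 ± 0.06 in the double knockdown. BACH1, a repressor at the same sites, rose by 0.50 ± 0.08 with the SP3 siRNA, and CUL3, part of the ligase that degrades NRF2, by 0.48 ± 0.08 and 0.41 ± 0.08 with the SP3 siRNA and both. Selenoprotein synthesis, on which the reductases depend, had 1 of 8 genes higher and 3 lower with the SP1 siRNA, 1 and 5 with the SP3 siRNA, and 1 and 5 in the double knockdown. SECISBP2 rose by 0.28 ± 0.08, 0.34 ± 0.08 and 0.35 ± 0.08. TRNAU1AP fell by -0.52 ± 0.09 and -0.48 ± 0.09 with the SP1 and SP3 siRNA, SEPHS1 by -0.54 ± 0.09 and -0.34 ± 0.09 with the SP3 siRNA and both, and SECISBP2L by -0.42 ± 0.11 in the double knockdown. Of the 68 calls made by the rule for list genes, 16 held in the additive model and 52 did not. A call lost there does not tell a weak difference from siRNA differences that do not add up. Those that held were ARRDC3, GPX8 and GCLC with the SP1 siRNA. With the SP3 siRNA they were ARRDC3, TXNDC5, TXNDC12, GCLC, GSTP1, GLRX, SOD2, HIF1A and MAFG, and in the double knockdown TXNDC5, GPX8, CRELD2 and HIF1A. The call of RRM2 was lost in each (limma adjusted p = 0.576, 0.538 and 0.356).

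The genes whose pattern lay closest to each strongly moved member were sought by distance over the 3 log2 differences from the controls, among 7099 genes averaging 5 FPKM or more, without the members, unnamed loci and annotated pseudogenes, as a description over 5 libraries. For PRDX4 they were AMN1 (distance 0.24, with differences of 2.22, 2.12 and 2.41 in the order SP1 siRNA, SP3 siRNA, both), TOMM22 (0.36) and SVBP (0.56). TOMM22, part of the mitochondrial outer membrane import machinery, was listed at 8.88 and 8.67 FPKM in the controls and at 57.8, 49.8 and 48.7 FPKM in the knockdown libraries. For PRDX5 they were SMS (0.22), which makes spermine, ENC1 (0.23) and ZBED2 (0.23). SMS was listed at 109 and 113 FPKM in the controls and at 41.5, 148 and 91.4 FPKM with the SP1 siRNA, the SP3 siRNA and both. For TXNRD1 they were STOM (0.08), ANGPTL4 (0.12) and CRABP2 (0.20), a retinoic acid binding protein. ANGPTL4, an inhibitor of lipoprotein lipase, was listed at 354 and 370 FPKM in the controls and at 372, 142 and 139 FPKM in the same order.

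Some of these values can share reads with other genes. GENCODE 29 names 7 processed pseudogenes of TXN, 4 of PRDX2, 4 of PRDX3, 1 of PRDX1 and 1 of PRDX4. None of these is listed in the tables, so how reads that fit both were counted cannot be read from them. PRDX1 shares up to 379 exonic bases with MMACHC, which lies on the opposite strand and reached 1.67 FPKM. TXNRD1 and TXNRD2 have 20 and 21 annotated transcript starts in GENCODE 29, and the tables give 1 value per gene, so starts cannot be told apart.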

How the data were processed

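The deposited data are 5 tables, 1 for each library, of FPKM values by gene. The submitters' processing notes name HTSeq 0.9.1, Cufflinks 2.2.1, Trimmomatic 0.36 and HISAT2 2.0.5 without their roles. Genome build, annotation and strandedness were not given in the sources used here. Thus reads of overlapping genes cannot be told apart. These deposited FPKM values keep the steps of counting. Library sizes were fitted on genes with 1 transcript in GENCODE 29, 138 of them at the last step. Each gene was then given the smallest length that made its reads whole in every library. With that fitted length, whole reads (tolerance 0.02) were recovered for 17122 of 17125 genes above 0. Of 500 genes with values jittered by an SD of 1%, 11.4% also gave whole reads. The recovered reads served for depth and for exact 95% intervals, which cover counting error alone.

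Differences were tested on log2(FPKM + 1) of the deposited values with limma 3.58.1 in R 4.3.3, using empirical Bayes with a mean trend, 1 mean per group over 5 libraries and a threshold of 0.05 on the Benjamini-Hochberg adjusted p. This scale understates changes of low genes. The 1 residual degree of freedom comes from the controls (13.98 prior degrees), so knockdown libraries are assumed to vary like them. The labels do not call the controls separate cultures, so the p-values may reflect technical spread. Alternatives were another pseudocount, filter or scaling, no trend, an additive model, each control left out and a 1.5-fold limit. The members were all named. Of each list, up to 3 genes per comparison with the controls were named, averaging at least 5 FPKM, past the threshold and with the largest difference. The 3 genes nearest in pattern were named for members past 2-fold. An item is not reported here. Members and lists were chosen with earlier results of these data known.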

Additional observations from a re-analysis of the deposited data

Results flagged for a closer look

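By the interaction term in limma, 4 of the 10 genes passed the threshold, against 39.5% of the tested genes. They were PRDX4 at -2.20, PRDX5 at 1.002, PRDX2 at 0.65 and TXN at 0.60, each the log2 difference of the double knockdown minus the sum of the single knockdowns. Without the filter on low values limma called 0 of 17125 genes. The double knockdown and both single knockdowns have 1 library each, and the spread in this test comes from the 2 controls. A difference that every knockdown library shares against the controls also enters this term, with its sign reversed. It cannot be told apart from siRNAs that do not add up.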

How the results depend on the processing

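No paired analysis was possible because each knockdown has 1 library and its title carries no replicate number. Leaving out either control leaves no residual degree of freedom, so those are values with no test, and no member difference that had been called changed sign. Differences near 0 that had not been called did so for PRDX1 (0.049, SP1 siRNA) and TXN (0.014, double knockdown) without control 2, and without control 1 for PRDX2 (0.012, SP1 siRNA), TXN2 (0.025 with the SP3 siRNA, 0.0082 in the double knockdown) and the PRDX1 interaction (0.019). With a pseudocount of 0.1 all 70 member results kept direction and call. Without the filter on low values, limma called 3 of the 10 members with the SP1 siRNA, 4 with the SP3 siRNA, 2 in the double knockdown, 0 and 0 for the double knockdown against the SP1 and SP3 siRNA, 3 for SP3 against SP1 siRNA and 0 for the interaction, against 24.4%, 12.3%, 18.4%, 0%, 0%, 15.4% and 0% of 17125 genes. At an unadjusted p under 0.05 these were 4, 7, 5, 5, 3, 8 and 4, against 48.5%, 43%, 44.9%, 35.4%, 25.9%, 45.4% and 31.4%. The prior degrees of freedom fell from 13.98 to 1.03 there. The additive model called 1, 2 and 3 members against the controls and 3 for SP3 against SP1 siRNA. For the double knockdown against the SP1 and SP3 siRNA, its 2 and 1 calls repeat those of the SP3 and SP1 siRNA against the controls. Over all genes the additive model called 900, 1805 and 1973 against the controls. It reversed PRDX2 (0.27) and TXNRD1 (-0.018) with the SP1 siRNA and TXN2 (0.10) with the SP3 siRNA. It also reversed PRDX2 (-0.22) and PRDX4 (1.13) for the double knockdown against the SP1 siRNA, and PRDX3 (-0.011) against the SP3 siRNA. Those values for the double knockdown are again its single siRNA effects against the controls. Median-ratio scaling reversed TXNRD1 (-0.11), STOM (-0.044) and ANGPTL4 (-0.081) with the SP1 siRNA, TXN2 (0.033) with the SP3 siRNA, PRDX3 for the double knockdown against the SP3 siRNA (-0.00636) and for SP3 against SP1 siRNA (0.0032), and the PRDX1 interaction (0.019). The causes were not tested. Median-ratio scaling also called the TXN2 interaction (0.32, limma adjusted p = 0.0301). Without a trend the member counts in the same order of comparisons were 4, 7, 5, 5, 2, 8 and 4, against 63%, 59.1%, 59.9%, 42.2%, 25.4%, 60.1% and 33.1% of genes. It ended calls of PRDX2, PRDX3, PRDX6 and TXN2 and added TXNRD2 in the double knockdown. Among genes averaging at least 5 FPKM, calls were added for PRDX4 in the double knockdown against the SP3 siRNA and for the TXN2 interaction. A 1.5-fold limit gave 3, 2 and 2 members against the controls. No share over all genes was taken at that limit, so these counts cannot be set against a background. TXNRD2 rests on 117 to 226 reads a library.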
